A study of Mus musculus with 2 samples.

Results

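Fatty acid oxidation and ketogenesis in the mouse liver were followed through 7 genes, each taken on its own: Ppara, Cpt1a, Acadm, Acadl, Hadha, Ehhadh and Bdh1. The genes were chosen by name for their place in these pathways, with earlier results of these data known. All 7 are among the 19059 genes of the deposited counts. The study asked what loss of AEG-1, the product of Mtdh, from myeloid cells does to the liver under a fatty diet. AEG-1 ΔMAC mice carry floxed Mtdh alleles together with LysM/Cre, in which Cre is driven by the lysozyme M gene of myeloid cells, and AEG-1 fl/fl littermates carry the floxed alleles without Cre. Both genotypes, on a C57BL/6J background, received the high-fat and high-sugar diet HF/HSD from 7 weeks of age for 20 weeks and were 27 weeks old when the livers were taken. The liver tissue was fixed and dissociated, and transcripts were counted per cell through probes that bind them. There was 1 library per genotype, so no difference between genotypes could be tested, and the number and sex of the livers behind each library are not given in the sources used here. The library labelled AEG-1 ΔMAC, below the ΔMAC-labelled library, held 79589511 counts in 2581 cells. The library labelled AEG-1 fl/fl, below the fl/fl-labelled library, held 90440089 counts in 3535 cells. The cell filter kept 2571 and 3508 cells, whose median counts were 12746 and 7682. The libraries shared 10 cell barcodes.

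Mtdh, the gene that the cross deletes, was measured first. Cells were classed by the counts of listed marker genes, and levels are counts per 1000000 counts (CPM), summed over the cells of a class. In macrophages, the target of the deletion, Mtdh had 274 counts in the ΔMAC-labelled library and 125 in the fl/fl-labelled library. These are 119 CPM (95% interval 105 to 134) and 23.6 CPM (19.6 to 28.1), a log2 ratio of 2.34 (2.03 to 2.65) with the higher level under the label of the deletion. In hepatocytes, which LysM/Cre does not target, the levels were 62.4 and 58.2 CPM. Endothelial cells had 86.5 and 95.5 CPM, stellate cells 105 and 90.1 CPM, and cholangiocytes 81.5 and 86.6 CPM. Among these classes, macrophages had the lowest level in the fl/fl-labelled library and the highest in the ΔMAC-labelled library. In the latter their interval overlapped those of stellate cells and cholangiocytes. Neutrophils, also myeloid cells, had 47.3 and 34.0 CPM, from only 2 and 8 counts. Mtdh therefore ran against the labels in macrophages, so every direction between libraries below is given by label. The share of macrophages followed the labels as the study describes the genotype, with fewer Kupffer cells under the deletion, at 9.68% and 18.0% of the kept cells. The study drew its description partly from these same libraries, and to that extent these shares are no separate check of the labels. The paper also reports weaker staining of a macrophage marker in liver sections of mice with the deletion under the same diet. That staining measured protein and did not come from these libraries, and the shares ran in its direction while Mtdh did not follow the labels. A share of cells depends on the other classes, and hepatocytes made up 47.0% and 33.0%. Cholangiocytes (0.856% and 2.05%) and neutrophils (0.389% and 1.65%) were also lower under the ΔMAC label, whereas endothelial cells were not (11.7% and 11.0%). Whether the labels were exchanged was not tested. Whether the probes for Mtdh lie in the deleted part of the gene is not given in the sources used here. All 95% intervals of levels (Poisson) and of ratios between libraries (Clopper-Pearson) cover counting error only, not the variation between mice.

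Fatty acids are activated to acyl-CoA in the cytosol and enter mitochondria through the carnitine shuttle, whose first enzyme, CPT1A, sets the rate in liver. Inside, acyl-CoA dehydrogenases and the trifunctional protein shorten the chain to acetyl-CoA, which hepatocytes turn into ketone bodies and export to other organs in fasting. Very long and dicarboxylic fatty acids are first shortened in peroxisomes, and the nuclear receptor PPARα, activated by fatty acids, induces genes of all these steps.

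The 7 genes lie on 6 chromosomes of the mm10 build (GRCm38), and all are annotated as protein coding. Ppara, the receptor gene, is ENSMUSG00000022383 at chr15:85734983-85802819. Cpt1a, the carnitine palmitoyltransferase of liver, is ENSMUSG00000024900 at chr19:3322334-3385733. Acadm (ENSMUSG00000062908, chr3:153922357-153944632) and Acadl (ENSMUSG00000026003, chr1:66830839-66863277) encode the medium-chain and long-chain acyl-CoA dehydrogenases. Hadha, for the alpha subunit of the trifunctional protein, is ENSMUSG00000025745 at chr5:30118304-30155162. Ehhadh, for the bifunctional enzyme of peroxisomal oxidation, is ENSMUSG00000022853 at chr16:21761287-21787807. Bdh1, for the dehydrogenase that makes 3-hydroxybutyrate, the main circulating ketone body, is ENSMUSG00000046598 at chr16:31422280-31458901.

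The first comparison asked which liver cells carried the 7 transcripts. The gate gave 1209 hepatocytes in the ΔMAC-labelled library and 1159 in the fl/fl-labelled library, with 63634153 and 67664865 counts. It gave 249 and 630 macrophages, 302 and 386 endothelial cells, 199 and 323 stellate cells, and 22 and 72 cholangiocytes. The classes held their own markers: the 14 macrophage markers summed to 23783 and 28619 CPM in macrophages against 718 and 572 CPM in hepatocytes, and the 5 cholangiocyte markers to 2295 and 2292 CPM in cholangiocytes against 17.7 and 21.3 CPM in hepatocytes. Hepatocyte RNA was present in these 4 classes too, since all 8 hepatocyte markers were counted in each of them. As a measure of it, the level of 21 plasma protein genes, which hepatocytes make, was taken in percent of the hepatocyte level. The median over these genes was 45.4% and 27.7% in macrophages, 63.4% and 42.9% in endothelial cells, 63.6% and 51.1% in stellate cells, and 22.4% and 27.8% in cholangiocytes, in the ΔMAC-labelled and the fl/fl-labelled library.

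Ppara was a hepatocyte transcript in both libraries. Its level was 310.2 CPM (306 to 315) in hepatocytes of the ΔMAC-labelled library and 305 CPM (301 to 309) in those of the fl/fl-labelled library. It followed with 151 and 106 CPM in endothelial cells, 107 and 100.4 CPM in stellate cells, 80.9 and 70.2 CPM in macrophages, and 30.6 and 66.0 CPM in cholangiocytes, the last from 9 and 61 counts. Endothelial and stellate cells did not differ beyond their intervals in the fl/fl-labelled library, and neither did macrophages and cholangiocytes. As a share of hepatocytes, Ppara stood below the median of the plasma protein genes in each of these 4 classes and in both libraries, for example at 26.1% against 45.4% and 23.0% against 27.7% in macrophages. Subtracting the hepatocyte share so measured gave values below 0 for Ppara in each of the 4 classes and both libraries. They ran from -80.5% of the hepatocyte level in stellate cells of the ΔMAC-labelled library to -6.57% in macrophages of the fl/fl-labelled library. The subtraction thus took away more Ppara than was counted, and it cannot show whether these classes make any.

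Among the mitochondrial genes, Cpt1a had 349.6 and 469 CPM in hepatocytes, with intervals of 345 to 354 and 464 to 474, and was the member on which the libraries differed most there. The libraries were close to each other in macrophages (181 and 188 CPM), endothelial cells (219 and 219 CPM) and cholangiocytes (231 and 249 CPM). In stellate cells they were further apart, at 201 and 239 CPM, a log2 ratio of -0.25 (-0.44 to -0.06). In macrophages Cpt1a stood at 51.9% and 40.1% of its hepatocyte level, above the median of the plasma protein genes, and in stellate cells at 57.6% and 51.0%, no higher than their median.

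Acadl was the 1 member with more CPM in another of these classes than in hepatocytes, an order that TMM scaling turns (below). It had 219 and 225 CPM in hepatocytes, 164 and 136 CPM in macrophages, 180.2 and 161 CPM in endothelial cells, and 189 and 174 CPM in stellate cells. In cholangiocytes it reached 268 CPM (212 to 334, 79 counts) and 269.6 CPM (237 to 305, 249 counts), which is 122% and 119.8% of the hepatocyte level, although the first interval includes that level. In each of these classes and both libraries, the share for Acadl exceeded that of every one of the 21 plasma protein genes, the highest of which reached 54.3% and 33.0% in macrophages and 85.1% and 72.1% in cholangiocytes. Hadha exceeded them all too in macrophages and endothelial cells of both libraries, and Acadm, Ehhadh and Bdh1 did so in macrophages of both. Acadl differed from these members in doing so in every one of the 4 classes.

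The medium-chain enzyme and the trifunctional subunit lay between these patterns. Acadm had 259 and 239 CPM in hepatocytes and 161 and 106 CPM in macrophages, or 62.3% and 44.3%. It stood at 75.1% and 58.6% in endothelial cells, 74.2% and 59.1% in stellate cells and 52.5% and 66.1% in cholangiocytes. Hadha had 205 and 257 CPM in hepatocytes and differed little between the other classes, with 144 and 147 CPM in macrophages, 159 and 159 CPM in endothelial cells, 173 and 151 CPM in stellate cells and 200.3 and 178 CPM in cholangiocytes.

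The peroxisomal and ketogenic members were low in cholangiocytes. Ehhadh had 312 and 256 CPM in hepatocytes and 98.5 and 80.1 CPM in cholangiocytes, or 31.5% and 31.3%. Bdh1 had 354 and 351 CPM in hepatocytes and 95.1 and 131 CPM in cholangiocytes. In macrophages both differed between the libraries, Ehhadh with 187 and 96.6 CPM and Bdh1 with 202 and 121 CPM, with the higher level in the library where the plasma protein genes were higher too. Their shares of the hepatocyte level, 60.0% and 37.8% for Ehhadh and 57.1% and 34.5% for Bdh1, were above the highest of those genes. After subtraction of the hepatocyte share, 26.8% and 13.9% of the hepatocyte level remained for Ehhadh in macrophages, and 21.5% and 9.40% for Bdh1.

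All 7 genes were called lower than in hepatocytes in macrophages, endothelial cells, stellate cells and cholangiocytes by edgeR's quasi-likelihood test (Benjamini-Hochberg adjusted over 12488 genes), except that with scaling by totals Acadl in stellate cells and Acadl and Hadha in cholangiocytes were not called. The background was high: 30.5% of all genes were called lower in macrophages, 30.9% in endothelial cells, 27.3% in stellate cells and 24.4% in cholangiocytes. Ppara had the lowest log2 value of the 7 in each class, with -2.58 (SE 0.23) in macrophages, -1.90 (SE 0.23) in endothelial cells, -2.07 (SE 0.23) in stellate cells and -3.37 (SE 0.29) in cholangiocytes. Acadl had the value nearest 0 in each, with -1.12 (SE 0.17) in macrophages (edgeR, Benjamini-Hochberg adjusted p = 3.89e-05) and -0.64 (SE 0.18) in cholangiocytes (adjusted p = 0.00834). Scaling by totals, added after the data were seen, moved the median of all genes up by 0.54 in macrophages, 0.65 in endothelial cells, 0.49 in stellate cells and 0.91 in cholangiocytes. Under that scaling Acadl in cholangiocytes turned to 0.29 (edgeR, Benjamini-Hochberg adjusted p = 0.139).

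**Figure D1:**
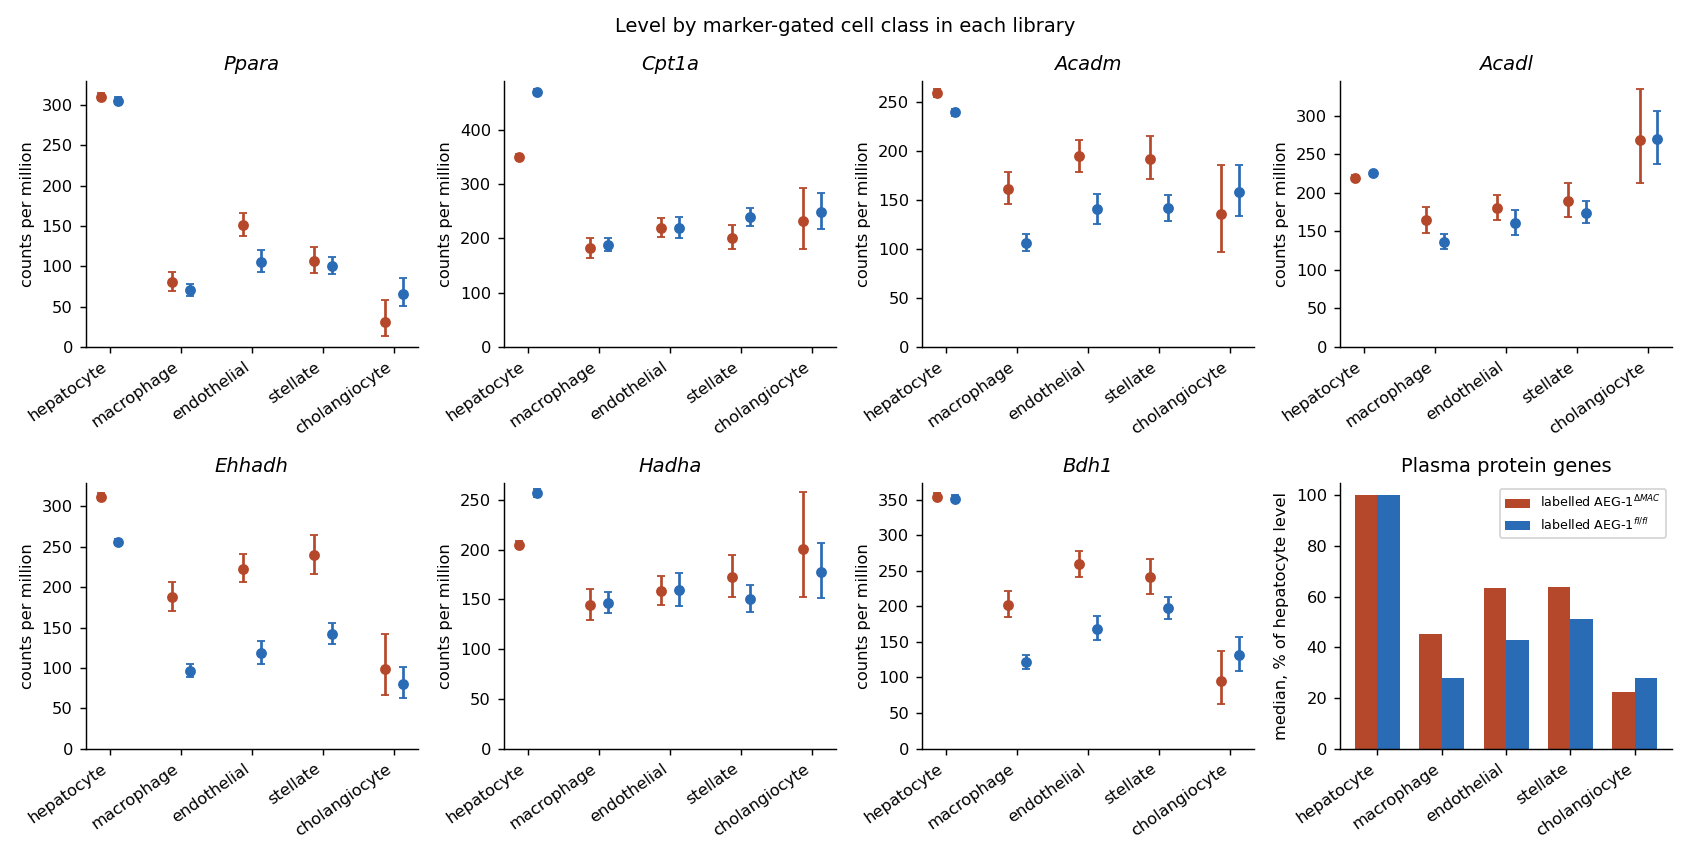
Level of each gene in CPM (vertical axis, 95% Poisson intervals) in 5 marker-gated classes of the ΔMAC-labelled library (red) and the fl/fl-labelled library (blue); the last panel shows, as bars without error, the median level of 21 plasma protein genes in percent of hepatocytes. Ppara falls from 310.2 and 305 CPM in hepatocytes to 30.6 and 66.0 CPM in cholangiocytes, while Acadl stands at 268 and 269.6 CPM in cholangiocytes against 219 and 225 CPM in hepatocytes, an order that turns with TMM scaling.

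The wider pathway was followed through 112 genes in 6 lists, which include the members. In macrophages, 87 of the 110 genes tested were called lower than in hepatocytes and 13, or 11.8%, higher, where 33.3% of all genes were called higher. Genes of mitochondrial beta-oxidation made up 30 of those lower, with none of the 32 tested higher, and the 8 omega-oxidation genes were all lower. The genes called higher in macrophages included Oxct1, the enzyme with which tissues other than hepatocytes use ketone bodies, at a log2 value of 4.18 (SE 0.20), Ucp2, a mitochondrial carrier, at 3.55 (SE 0.24), and the peroxisomal fatty acid transporter Abcd2 at 1.46 (SE 0.16). Ppargc1a, a coactivator of PPARα, was lower by a log2 value of -3.19 (SE 0.37), and Fgf21, a PPARα target and liver hormone, by -3.56 (SE 0.41).

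The other classes repeated this division. In endothelial cells 90 genes were called lower and 7 higher, in stellate cells 93 and 6, and in cholangiocytes 92 and 6. Of all genes, 31.5%, 31.2% and 27.7% were called higher in these 3 classes. Oxct1 was called higher in each of them, at 1.73 (SE 0.24), 2.69 (SE 0.22) and 2.99 (SE 0.29). Cpt1c, the carnitine palmitoyltransferase best known from neurons, was called higher in the same 3 classes, with 3.53 (SE 0.38), 4.95 (SE 0.37) and 3.67 (SE 0.51), and had 30 and 123 counts in hepatocytes.

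The remaining classes were small, with 32 and 83 T and NK cells, 46 and 65 B cells, 14 and 33 dendritic cells, and 10 and 58 neutrophils. Ppara had 5 and 8 counts in T and NK cells (41.8 and 26.2 CPM). Dendritic cells had 0 and 7 counts of it, where the 95% interval of a count of 0 reaches 47.7 CPM. As a share of hepatocytes, Ppara in both classes lay below the median of the plasma protein genes, which was 35.8% and 24.1%, and 20.3% and 26.2%. B cells and neutrophils, in which those medians were higher, at 62.0% and 59.0%, and 53.0% and 64.8%, had 139.9 and 186 CPM and 331 and 174 CPM of Ppara, the neutrophil values from 14 and 41 counts. As shares of the hepatocyte level these were 45.1% and 60.8% in B cells and 106.7% and 57.1% in neutrophils. Ppara thus lay above the median in B cells of the fl/fl-labelled library and in neutrophils of the ΔMAC-labelled library. Acadl had levels between 142 and 199.9 CPM over these classes and libraries.

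The next comparison asked how the genes were distributed between the central vein and the portal field. Hepatocytes were ordered by the log2 ratio of Cyp2e1, a pericentral gene, to Cyp2f2, a periportal gene, and divided by rank into 3 equal groups in each library, called pericentral, midlobular and periportal. Each group held 403 cells in the ΔMAC-labelled library and 386 or 387 cells in the fl/fl-labelled library. From pericentral to periportal, median counts per cell were 29105, 24290 and 32420 in the former and 41794, 19262.5 and 34303 in the latter. The order used raw counts, so depth enters it, and the part of depth in the midlobular levels was not tested. The groups were compared within libraries by edgeR's quasi-likelihood test, with the library as a block and Benjamini-Hochberg adjustment over 12332 genes.

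Ppara was the 1 member called, and it was pericentral. In the ΔMAC-labelled library its level went from 407 CPM (398 to 416) in pericentral through 336 CPM to 213 CPM (207 to 219) in periportal cells. In the fl/fl-labelled library it went from 374 CPM (367 to 382) through 312 CPM to 239 CPM (233 to 245). The order was the same in both libraries, and neighbouring groups did not overlap in their intervals. The log2 ratio of pericentral over periportal cells was 0.53 (SE 0.10, edgeR with Benjamini-Hochberg adjusted p = 0.0016). When hepatocytes were ordered by the other listed zone markers in place of Cyp2e1 and Cyp2f2, it was 0.16 (edgeR, Benjamini-Hochberg adjusted p = 0.0636), and without the library block the adjusted p was 0.0905. Over 9 alternatives the Benjamini-Hochberg adjusted p ranged from 2.64e-06 with DESeq2 to 0.0905 with edgeR, and 7 of them kept the call.

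The other 6 members were not called, and in CPM all of them were highest in pericentral or midlobular cells. Bdh1 had 420.4, 361 and 295 CPM from pericentral to periportal cells in the ΔMAC-labelled library and 419.5, 349 and 291 CPM in the fl/fl-labelled library, so that the libraries were nearly alike in each group. Its log2 ratio was 0.25 (SE 0.10, edgeR with Benjamini-Hochberg adjusted p = 0.0869). It was called in 5 of 9 alternatives, and the Benjamini-Hochberg adjusted p of edgeR ranged from 6.48e-05 to 0.52 over these. Ketone body synthesis is usually described as periportal, and the levels of its last enzyme did not have that order here.

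Cpt1a went from 414 to 296 CPM in the ΔMAC-labelled library and from 508 to 435 CPM in the fl/fl-labelled library, with a log2 ratio of 0.09 (SE 0.10). Acadl, at 249.9 to 191 CPM and 254 to 194 CPM, had 0.12 (SE 0.10). The ratios of Acadm (0.01), Hadha (0.01) and Ehhadh (-0.01) were near 0, each with an SE of 0.10 to 0.11. When the order came from the other listed zone markers, however, Acadl (0.41), Hadha (0.37), Ehhadh (0.37) and Acadm (0.28) were called pericentral by the same test, so the zonation of these 4 depends on the markers that set the order. These ratios depend on the scale. Among the abundant transcripts, Alb had 53371 CPM in pericentral and 96543 CPM in periportal cells of the ΔMAC-labelled library, and 57238 and 82174 CPM in the other; its part in the dependence on scale was not tested. Scaling by totals moved the median of all genes from -0.03 to 0.23, and all 7 members were then called higher in pericentral cells, Ppara at 0.79, Bdh1 at 0.52, Acadl at 0.39, Cpt1a at 0.35, Acadm at 0.28, Hadha at 0.27 and Ehhadh at 0.25.

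Of all genes tested, 10.9% were called higher and 13.3% lower in pericentral cells, against 1 and 0 of the 7 members. Of the 111 pathway genes tested, 31 were called higher and 9 lower, with a median log2 ratio of 0.09 against -0.03 over all genes; these counts were 3 and 1 without the library block, and 56 and 15 with the order set by the other zone markers. Of the 6 lists, 2 had the largest shares of higher genes. Among the 8 genes of omega-oxidation, which converts fatty acids to dicarboxylic acids in the endoplasmic reticulum, 6 were higher, led by the fatty aldehyde dehydrogenase Aldh3a2 (1.46, SE 0.10) and the hydroxylases Cyp4a14 (1.34, SE 0.11) and Cyp4a10 (1.18, SE 0.14), and Cyp4f14 was lower (-0.55, SE 0.10). Among 18 further PPARα targets 11 were higher, led by the thioesterase Acot1 (1.34, SE 0.09), the pyruvate dehydrogenase kinase Pdk4 (1.06, SE 0.22) and the lipid droplet gene Plin4 (1.04, SE 0.11), and Retsat was lower (-0.69, SE 0.11). The call of Pdk4 was lost with DESeq2 (Benjamini-Hochberg adjusted p = 0.190). In the fl/fl-labelled library Pdk4 was highest in midlobular cells, with 32.3, 45.7 and 11.4 CPM from pericentral to periportal cells.

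The core pathways held genes called in either direction. Of 33 genes of mitochondrial beta-oxidation, 6 were higher, among them Cpt1b (0.97, SE 0.11), Acot2 (0.77, SE 0.13) and Eci2 (0.67, SE 0.10), and 1, the acyl-CoA synthetase Acsl5, was lower (-0.37, SE 0.12). Of 22 peroxisomal genes 4 were higher, led by Acot3 (0.97, SE 0.14) and Pex11a (0.90, SE 0.10), and 3 were lower, led by Abcd2 (-0.55, SE 0.16). From pericentral to periportal cells, Abcd2 had 8.15 against 13.6 CPM in the ΔMAC-labelled library but 20.7 against 20.4 CPM in the fl/fl-labelled library. Its call was lost with DESeq2 (Benjamini-Hochberg adjusted p = 0.0531). Among the 9 ketone body genes, the cytosolic dehydrogenase Bdh2 was lower in pericentral cells by -3.68 (SE 0.20), at 1.42 against 12.9 CPM and 0.88 against 11.3 CPM. The monocarboxylate transporter gene Slc16a6 was lower by -1.41 (SE 0.19) and its relative Slc16a7 higher by 0.55 (SE 0.09). Among 21 regulators, Pparg (0.83, SE 0.10), Ppara and Sirt3 (0.26, SE 0.09) were higher and the coactivator Ppargc1b was lower (-0.43, SE 0.12). With DESeq2 the calls of Sirt3 (Benjamini-Hochberg adjusted p = 0.0673) and Ppargc1b (adjusted p = 0.135) were lost. Ppargc1b had 17.0 against 16.7 CPM in the ΔMAC-labelled library and 12.2 against 15.7 CPM in the fl/fl-labelled library. With scaling by totals, 74 pathway genes were called higher and 4 lower.

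**Figure D2:**
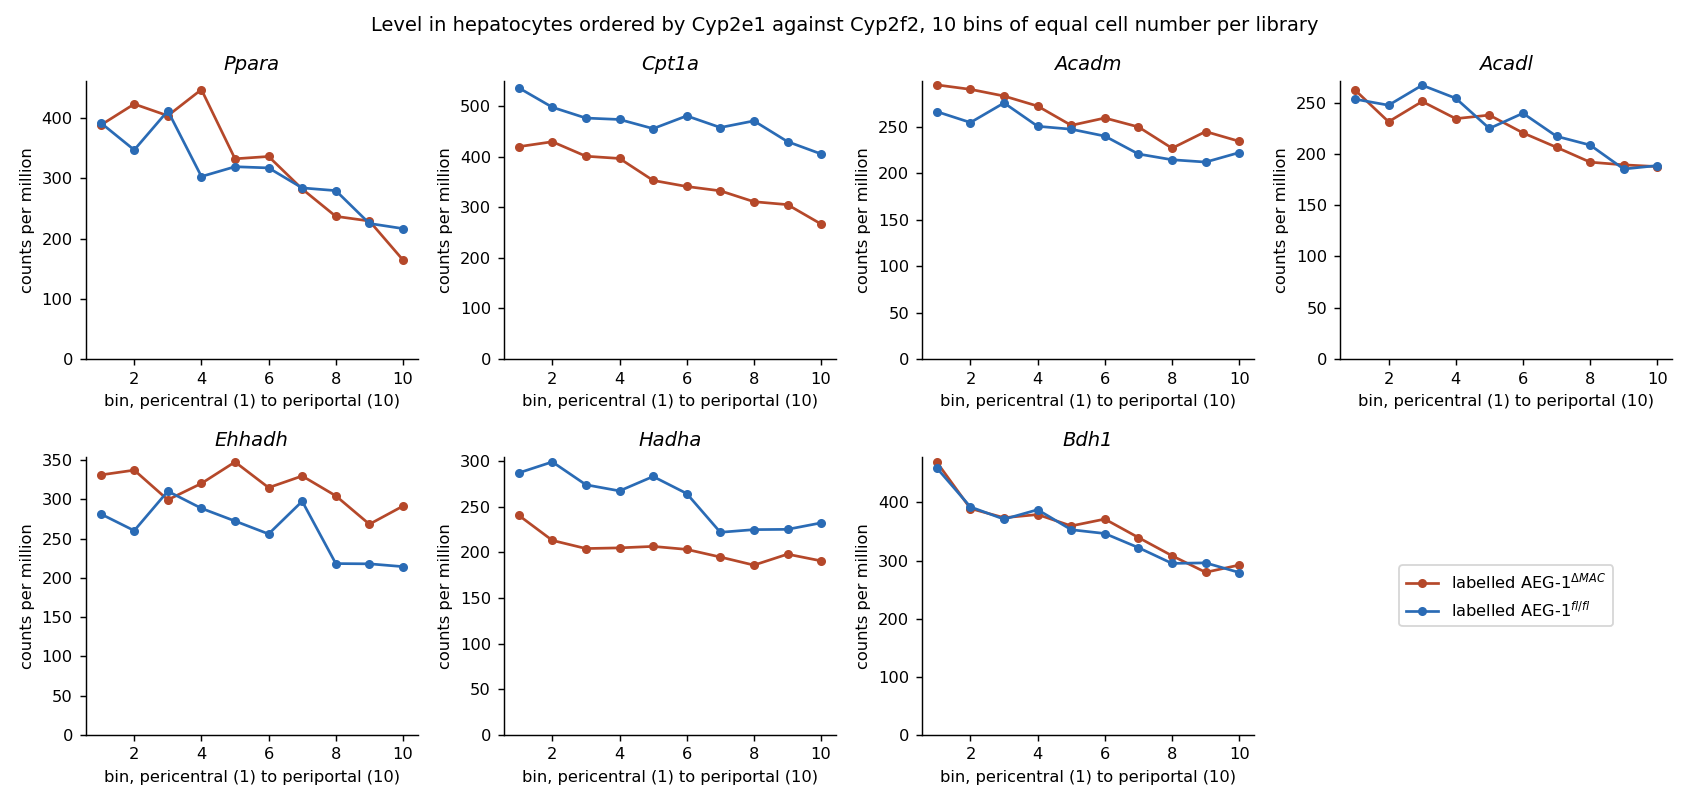
Level of each gene in CPM (vertical axis, from 0) in 10 bins of equal cell number from pericentral to periportal hepatocytes (horizontal axis) in the ΔMAC-labelled library (red) and the fl/fl-labelled library (blue), without error bars. Ppara declines from 389 to 165 CPM and from 393 to 217 CPM between the first and the last bin, and Bdh1 from 469 to 292 CPM and from 459 to 279 CPM.

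Hepatocytes were not uniform within a zone. In 188 cells of the ΔMAC-labelled library and 153 of the fl/fl-labelled library, the 8 hepatocyte markers made up under 5% of the counts, a division made after the data were seen, with 89 and 100 cells close to it. These cells had median mitochondrial shares of 0.992% and 0.87%, against 3.26% and 3.11% in the other hepatocytes, and median counts of 19305 and 18638 against 32813 and 34052. They made up 27.0%, 12.2% and 7.44% of pericentral, midlobular and periportal cells in the ΔMAC-labelled library, and 16.3%, 13.5% and 9.84% in the fl/fl-labelled library.

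Ppara was higher in these cells, with 808 against 276 CPM and 776 against 281 CPM. The log2 ratios were 1.55 and 1.47. Within pericentral cells alone they were 1.33 and 1.31, so the difference was also present at a matched zone. Cpt1a was higher by 0.66 and 0.38. The other members ran the opposite way or lay near 0: Bdh1 at -1.08 and -0.79, Hadha at -0.74 and -0.52, Ehhadh at -0.97 and -0.06, Acadm at -0.34 and -0.23, and Acadl at -0.14 and 0.03.

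Such ratios were common over all genes. Of 11288 genes, 52.1% had a log2 ratio of at least 0.5 in both libraries in these cells, as Ppara had among the members, and 9.15% had one of at most -0.5, as Bdh1 and Hadha had. By the smaller of its ratios, Ppara took place 2043 of 11288. Named after their values were seen, the transcription factor genes Mlxipl (2.95 and 2.64) and Nr1i3 (3.11 and 2.65) stood at places 17 and 16. No test was made, since the cells were set apart by their counts. Without these cells the zonal log2 ratio of Ppara was 0.50, still called, and that of Bdh1 was 0.39 (edgeR, Benjamini-Hochberg adjusted p = 0.00385).

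**Figure D3:**
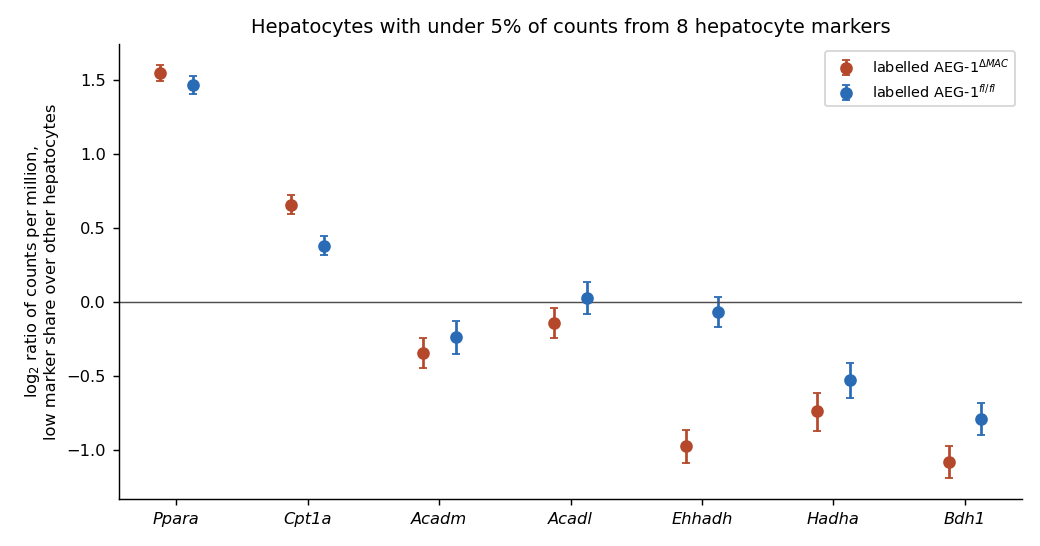
Log2 ratio (vertical axis, 95% Clopper-Pearson intervals for counting error) of each gene in hepatocytes with under 5% of counts from the 8 hepatocyte markers over the other hepatocytes, in the ΔMAC-labelled library (red) and the fl/fl-labelled library (blue). Ppara (1.55 and 1.47) and Cpt1a (0.66 and 0.38) lie above 0 and Bdh1 (-1.08 and -0.79) and Hadha (-0.74 and -0.52) below it in both libraries.

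The last comparison set the libraries against each other by label in hepatocytes. A gene counted as past the fold when its log2 ratio, the ΔMAC-labelled library over the fl/fl-labelled library, was at least 0.5 or at most -0.5 with at least 50 counts. None of the 7 members was past it in either direction, where 5.64% of 12197 genes were higher and 8.49% lower. Cpt1a came nearest, at -0.42 (-0.45 to -0.40), and Hadha was at -0.33 (-0.36 to -0.29). Ehhadh was higher under the ΔMAC label, at 0.29 (0.26 to 0.32), and Acadm at 0.11 (0.08 to 0.15). Acadl (-0.04), Ppara (0.02) and Bdh1 (0.01) were nearly level. The median absolute ratio over all genes was 0.18, so 3 of the 7 members exceeded it by size.

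The ratio of Cpt1a lay further from 0 toward the portal field, at -0.29 in pericentral, -0.41 in midlobular and -0.56 (-0.60 to -0.51) in periportal cells. That of Ehhadh was 0.21, 0.22 and 0.41. Hadha had -0.36, -0.36 and -0.25. The difference between zones in these ratios was not tested.

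The genes past the fold lay elsewhere in the pathway, and all were lower under the ΔMAC label. Of 111 pathway genes with counts, 18 were lower and 0 higher, with a median log2 ratio of -0.09 against 0.01 over all genes. Omega-oxidation had the largest share, with 5 of 8 genes lower and all 8 below 0, among them the hydroxylase genes Cyp4a12b (-1.63), Cyp4a31 (-0.99) and Cyp4a10 (216 and 391 CPM, -0.85). In mitochondrial beta-oxidation 3 of 33 genes were lower, a share near that of all genes (8.49%), including the thioesterase Acot2 (-1.36) and the long-chain acyl-CoA synthetase Acsl1 (447 and 649 CPM, -0.54). Of 22 peroxisomal genes 4 were lower, led by Acot3 (252 and 1900 counts, -2.83), Acot4 (-1.20) and Abcd2 (-0.88). The Acot and Cyp4a genes are families with similar sequences, and whether the probes tell their members apart is not given in the sources used here.

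Among the further PPARα targets 6 of 18 were lower, led by Txnip, a regulator of glucose uptake (130 and 495 CPM, -1.93), the hormone gene Fgf21 (27.6 and 60.2 CPM, -1.13) and Pdk4, which turns pyruvate away from oxidation (13.1 and 26.8 CPM, -1.03). None of the 9 ketone body genes and none of the 21 regulators was past the fold.

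**Figure D4:**
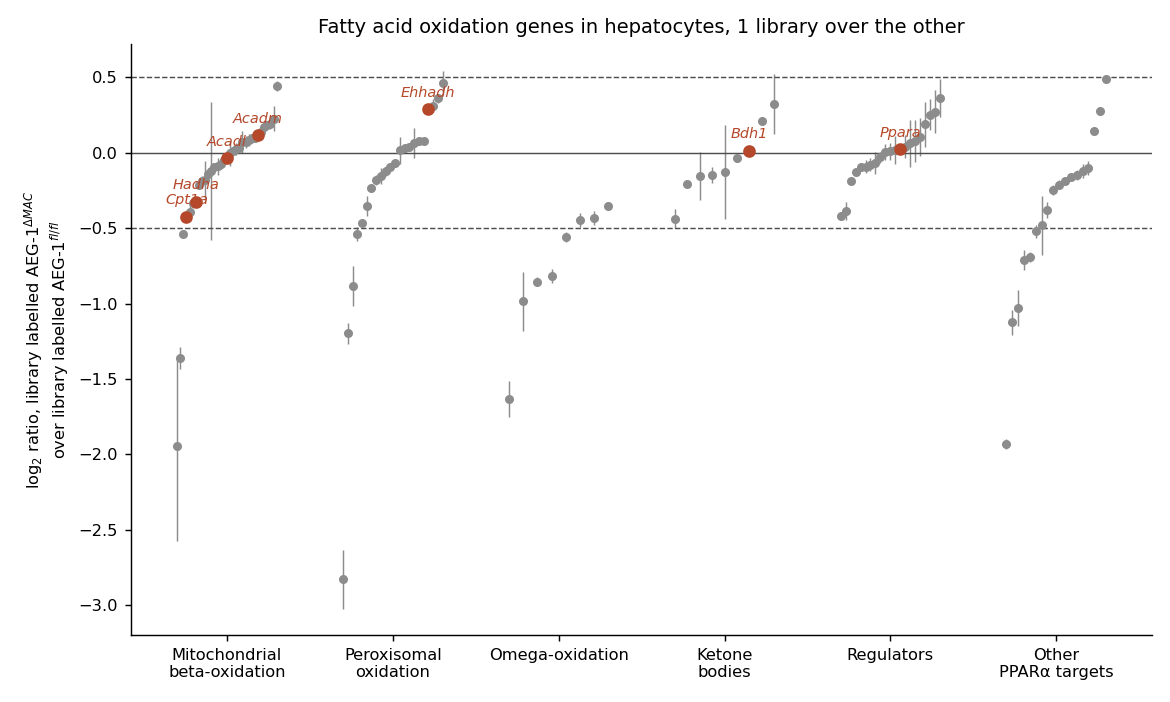
Log2 ratio in hepatocytes of the ΔMAC-labelled library over the fl/fl-labelled library (vertical axis, 95% Clopper-Pearson intervals for counting error) for each pathway gene with at least 50 counts, by list; dashed lines mark 0.5 and -0.5 and the 7 members are named in red. The members lie between -0.42 and 0.29, and 18 other genes lie at or below -0.5.

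Other differences between the libraries stood beside these values, in genes named after their values were seen. Of 12 genes that follow feeding and fasting, 2 were higher under the ΔMAC label, among them Pnpla3 (0.68), and 4 were lower (Fgf21, Pdk4, G6pc at -0.68 and Thrsp at -0.57). Of 11 clock genes, Npas2 (2.15) and Arntl (1.81) were higher and Per3 (-1.19), Dbp (-0.86), Per2 (-0.68) and Tef (-0.54) were lower. Several fatty acid oxidation genes are known to follow feeding and the clock in liver. Of the sex-linked and sex-biased genes, the Y-linked Ddx3y (59.9 and 51.9 CPM), Uty (24.1 and 21.7 CPM), Kdm5d (18.1 and 21.8 CPM) and Eif2s3y (43.7 and 46.6 CPM) were present in both libraries. Sult1e1 (4.93) and Cyp2b9 (4.14) were higher and Slco1a1 (-2.57) was lower. Of the 21 plasma protein genes 1 was past the fold, Trf at -0.69. The part of feeding state, time of day, sex and library preparation in the ratios of the 7 genes was not tested, and with 1 library per genotype they cannot be told apart from the genotype.

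In nonparenchymal cells some members differed between the libraries in the same direction as hepatocyte RNA and others did not. In macrophages Ehhadh (0.96), Bdh1 (0.74), Acadm (0.61) and Acadl (0.27) were higher under the ΔMAC label, where the plasma protein genes also stood at the higher share (45.4% against 27.7%). Cpt1a (-0.05) and Hadha (-0.03) were level there. In endothelial cells the ratios of Ehhadh (0.91), Bdh1 (0.62), Ppara (0.51) and Acadm (0.47) were likewise above 0, with plasma protein genes at 63.4% against 42.9%. In stellate cells, with those genes at 63.6% against 51.1%, Ehhadh (0.75), Acadm (0.44) and Bdh1 (0.29) were above 0 and Cpt1a was below it, at -0.25 (-0.44 to -0.06). The part of hepatocyte RNA in these ratios was not tested. In cholangiocytes, with plasma protein genes at 22.4% against 27.8%, the intervals of the ratios of 6 members included 0, and Ppara had -1.11 (-2.31 to -0.09) from 9 and 61 counts.

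For each gene, those with the most similar course over 10 zonal bins in each of 2 libraries were found by Pearson's r of log2(CPM + 1) over the 20 points, among 2931 other genes of at least 50 CPM. These r values are descriptions, since the points share libraries, depth and the zonal order. Ppara ran closest to Nr1i3 (r = 0.98), Fam160b1 (0.98) and Lpin2 (0.97), and Cpt1a to Por (0.97), Alas1 (0.97) and Rapgef4 (0.97). Nr1i3, which encodes the nuclear receptor CAR, and the heme synthesis gene Alas1 are pericentral genes of drug metabolism, as is the reductase gene Por. Acadm ran closest to Plscr2 (0.95), Akr1c20 (0.95) and Arhgef3 (0.94), and Acadl to Ech1 (0.96), Cyp2c38 (0.95) and Pdzk1 (0.94). Ech1 is itself a gene of fatty acid oxidation. Hadha ran closest to Cd81 (0.95), Alpl (0.95) and Aplp2 (0.94), Ehhadh to Tubb2a (0.90) and Dgcr6 (0.89), and Bdh1 to Cyb5a (0.97) and Hpgd (0.95). For several pairs the r within 1 or both single libraries was lower than over the 20 points, at 0.75 and 0.84 for Ehhadh with Tubb2a, at 0.78 and 0.90 for Hadha with Cd81 and 0.70 and 0.94 with Alpl, and at 0.94 and 0.87 for Cpt1a with Por and 0.97 and 0.82 with Rapgef4, in the ΔMAC-labelled and the fl/fl-labelled library. Among the members, the highest r was that of Ppara and Cpt1a (0.96) within the ΔMAC-labelled library and that of Ppara and Acadl (0.93) within the fl/fl-labelled library. Over the 20 points it was that of Acadl and Bdh1 (0.88). Cpt1a and Ehhadh had -0.29 over the 20 points but 0.59 and 0.56 within the single libraries; between the libraries their levels differ in opposite directions (-0.42 and 0.29).

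Because PPARα induces many genes of these pathways through direct repeats of AGGTCA spaced by 1 base, the promoters of the 7 genes were searched for it. All 7 were matched by symbol to RefSeq promoters of 300 bases (250 before the start, GRCm38.p6). The full repeat, AGGTCANAGGTCA on either strand, was found in 0 of the 7 and in 13, or 0.0396%, of 32851 promoters. An exact match this rare would be missing from almost any 7 promoters. The count of 0 therefore cannot show that these genes lack the repeat in other forms or outside these bases. The single motif AGGTCA was found in 16.3% of all promoters and, among the members, in Acadm and Cpt1a. In both of these it lies on the opposite strand (as TGACCT, in capitals). These stretches are shown because they hold the only matches among the members. The stretch of Acadm, chr3:153944644-153944893 on the minus strand, lies outside annotated genes. That of Cpt1a, chr19:3323051-3323284 on the plus strand, lies in an intron of a longer annotated Cpt1a transcript and is printed up to the first annotated exon base. A match is only a description of these letters.
Acadm: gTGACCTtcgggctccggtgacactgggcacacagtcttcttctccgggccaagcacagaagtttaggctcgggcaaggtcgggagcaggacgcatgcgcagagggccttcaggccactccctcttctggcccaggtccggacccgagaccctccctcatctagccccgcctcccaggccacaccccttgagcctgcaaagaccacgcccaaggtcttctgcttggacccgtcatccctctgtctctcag
Cpt1a: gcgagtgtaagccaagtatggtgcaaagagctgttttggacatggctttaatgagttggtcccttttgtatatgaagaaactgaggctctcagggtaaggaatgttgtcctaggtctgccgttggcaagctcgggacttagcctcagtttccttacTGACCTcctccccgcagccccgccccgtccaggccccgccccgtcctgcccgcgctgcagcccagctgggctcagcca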

How the data were processed

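The authors deposited raw counts of probe molecules per gene and cell for 2 liver libraries, made with Cell Ranger 7.1.0 per the file headers and the mm10 reference. The members and gene lists were chosen with earlier results of these data known. Kept cells had 100 or more genes and no more than 10% mitochondrial counts. A class needed a marker rate of at least 4 times the pooled rate and 10 per 10000 counts, at least 4 counts of at least 2 markers, and a 2-fold lead over the next class. Hepatocytes needed 150 marker counts per 10000 and 5000 counts. No doublet caller was run; 65 and 124 cells with markers of 2 classes, 145 and 218 hepatocyte-like cells of low RNA content, and 278 and 357 cells of no class were set aside, with the ΔMAC-labelled library given first.

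Counts were summed per class or zone and library in pandas 2.3.3 and NumPy 2.4.6 under Python 3.11.15, intervals came from SciPy 1.17.1, and figures from matplotlib 3.10.9. Zones came from the log2 ratio of Cyp2e1 to Cyp2f2 raw counts, each plus 1. Tests used edgeR 4.0.16 (limma 3.58.1, R 4.3.3) with TMM factors, its filter on low counts and the library as a block, over 6 sums for zones and 10 for classes; calls were made at an adjusted p under 0.05. These sums come from the same 2 libraries. With the library as a block, the tests rest on how alike zones or classes differ in the 2 libraries, with 2 residual degrees of freedom for zones. Variation between single cells and between mice of a genotype does not enter them. The scripts were tested on simulated data. Named are the 7 members, Mtdh, at most the 3 highest and 3 lowest genes of each list past the threshold with at least 200 counts, and up to 3 genes most like each member; feeding, clock, sex-linked and sex-biased genes, Alb, Mlxipl and Nr1i3 (beside the low-marker hepatocytes) fall outside this rule and were chosen after their values were seen. Alternatives were DESeq2 1.42.0 and its size factors, TMM between libraries, no filter on low counts, no block, other zone markers, common zone limits, a mean over cells, 10000 to 100000 counts per cell, folds of log2 0.32 and 1, a stricter gate (8-fold rate, 8 counts, 4-fold lead), a filter of 500 genes and 5% mitochondrial counts, subtraction of hepatocyte RNA, and those added later.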

Additional observations from a re-analysis of the deposited data

Results flagged for a closer look

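The results below drew attention because the log2 ratio of the ΔMAC-labelled library over the fl/fl-labelled library had opposite signs in 2 groups of cells; none of these differences was tested. Acadl had -0.0363 in hepatocytes and 0.27 in macrophages, where the plasma protein genes also stood at the higher share under the ΔMAC label (45.4% against 27.7%). Ppara had 0.12 in pericentral and 0.11 in midlobular hepatocytes but -0.16 in periportal ones. Ehhadh had -0.58 in hepatocytes with under 5% of counts from hepatocyte markers and 0.33 in the others. Bdh1 had -0.26 and 0.0313 in the same groups.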

How the results depend on the processing

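No paired analysis was possible because each genotype had 1 library, both numbered replicate 1. Between libraries, over all hepatocytes or the subsets of the alternatives below, no member passed the fold of log2 0.5 under any alternative, and the signs of Cpt1a, Acadm, Acadl, Ehhadh and Hadha held throughout. With the mean over cells, the log2 ratios were 0.089 for Ppara, -0.35 for Cpt1a, -0.0800 for Acadl, 0.18 for Ehhadh, -0.37 for Hadha and -0.0441 for Bdh1, and 2 pathway genes were higher. With cells of 10000 to 100000 counts they were 0.0928 for Ppara, -0.34 for Cpt1a, 0.0476 for Acadm, -0.0843 for Acadl, 0.17 for Ehhadh, -0.43 for Hadha and -0.0327 for Bdh1, and 1 pathway gene was higher; between zones Acadm then had -0.0628 and Hadha -0.0586, and 5 pathway genes were lower in pericentral cells. In hepatocytes with a marker share of at least 5%, added after seeing the data, the ratios between libraries were -0.0278 for Ppara, -0.45 for Cpt1a and 0.33 for Ehhadh, and the zonal ratios were 0.12 for Ehhadh and 0.39 for Bdh1, with 2 members called. The mean of the 3 zones gave 1 pathway gene higher. A fold of log2 0.32 gave 6 pathway genes higher, 32 lower and 2 members lower, and a fold of log2 1 gave 8 lower. Between zones, ordering by the other zone markers gave 0.16 for Ppara, 0.28 for Acadm, 0.41 for Acadl, 0.37 for Ehhadh, 0.37 for Hadha and 0.62 for Bdh1, with 56 pathway genes higher and 15 lower in pericentral cells and 5 members called. Without the library block Ppara had 0.53, with 3 pathway genes higher, 1 lower and 0 members called. Scaling by totals, added after seeing the data, gave 0.35 for Cpt1a, 0.28 for Acadm, 0.39 for Acadl, 0.25 for Ehhadh, 0.27 for Hadha and 0.52 for Bdh1, with 74 pathway genes higher, 4 lower and 7 members called, and 0.29 for Acadl in cholangiocytes over hepatocytes. The strict cell filter gave -0.0342 for Acadm and -0.0526 for Hadha. DESeq2 gave 0.00642 for Ehhadh and 0.27 for Bdh1, with 2 members called, and no filter on low counts gave 0.0283 for Ehhadh and 0.29 for Bdh1, with 2 members called. Leaving out either library gave zonal ratios of 0.47 to 0.58 for Ppara, 0.0486 to 0.13 for Cpt1a, -0.0679 to 0.10 for Acadm, 0.0325 to 0.21 for Acadl, -0.20 to 0.18 for Ehhadh, -0.13 to 0.15 for Hadha and 0.16 to 0.35 for Bdh1, with no test. The cause of these changes was not tested. Of 84 comparisons of classes with hepatocytes under alternatives, 81 kept direction and call; the 3 others came with scaling by totals. Levels moved beyond their interval in 51 of 56 cases when hepatocyte RNA was subtracted, 34 of 56 under the stricter gate and 1 of 56 under the strict filter. Depth limits the small classes most: the 95% interval of a count of 0 reaches 47.7 CPM in dendritic cells of the ΔMAC-labelled library.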
